A study of Arabidopsis thaliana with 43 samples.

Results

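The 26S proteasome is the protease complex that degrades proteins tagged with ubiquitin. Its 20S core is a barrel of outer α rings and inner β rings, and 3 of the β subunits, PBA, PBB and PBE, carry the proteolytic sites. The 19S particle caps the barrel. Its base holds 6 ATPases, RPT1 to RPT6, which unfold the substrate, together with the scaffold proteins RPN1 and RPN2 and the ubiquitin receptors RPN10 and RPN13. Its lid holds RPN11, which removes the ubiquitin chain, and structural subunits such as RPN6, which lies against the 20S core. In plants, blocking the proteasome raises the transcripts of its own subunits, and the transcription factors NAC053 and NAC078 are known activators of these genes.

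The members were 44 loci chosen by subunit name, of 33602 loci in the count tables and 20980 that were tested. They comprised 12 α ring genes, 11 β ring genes, 10 base ATPase genes, 4 further base genes and 7 lid genes. No gene of the subunits RPN9 and DSS1 was among them. The rule itself uses no measured value, though it was written with earlier results of these data known, and all 44 passed the filter on low counts. RefSeq lists RPN6 as ATS9, RPN3A as EMB2719 and RPN5A as EMB2107.

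RNA was sequenced from leaves of wild-type Col-0 seedlings that grew in plates of about 80 at 22 °C with 16 h of light. All groups were Col-0, with no mutant and no transgene. T1 was sampled on day 12 at the start of the light period. The acclimated plants were then warmed over 6 h, sampled when the ramp stood at 38 °C after 3 h (T2) and at 45 °C after 6 h (T3), and held at 45 °C for 90 min (T4). They were sampled again at 22 °C after 2 days (T5) and 4 days (T6), both at the same hour of the light period as T4. On day 16 they were shocked at 45 °C for 90 min and sampled at the end of the shock (T7) and 2 days later at 22 °C (T8). Non-acclimated plants of the same age were sampled at 22 °C before the shock (T9), at its end (T10) and 2 days later at 22 °C (T11). T10 was therefore sampled 1.5 h later in the day than T9, and T7 likewise later than T6. For T7 to T9 the protocol text and the temperature labels disagree, and the roles given here are those of the temperature labels.

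Each time point had n = 2 plates, 1 in each of 2 batches, and the leaves of a plate were divided between 2 tubes whose counts were summed here. T3 of batch 1 had 1 tube. The 43 libraries held 6355953 to 21304864 gene counts and the 22 plates 12897149 to 27961281. Read pairs that aligned to several places made up 3.75 to 24.2% of the records in batch 1 libraries and 13.3 to 44.2% in batch 2 libraries. The least counted member had 8217 counts over all plates, and no member fell below 66 counts in a plate. Counting error was not set against the spread between plates. The leaf genes RBCS1A and LHCB1.3 together ranged from 4122 to 99179 TMM-CPM over the plates, a scaled count explained with the first comparison. The shoot apex genes STM and KNAT1 together ranged from 2.52 to 29.6 TMM-CPM, and the root genes IRT1, PYK10 and NRT2.1 together from 153 to 1063 TMM-CPM, nearly all of it PYK10. In bulk leaf RNA, fewer cells of a type and less RNA per cell cannot be told apart. HSP101, a chaperone gene induced by heat, had 42524 and 44214 TMM-CPM in batches 1 and 2 at T4, against 5.86 and 7.54 at T9. At T11, 2 days after the shock at 22 °C, HSP101 still stood at 3601 and 1241 TMM-CPM, against 5.86 and 7.54 at T9.

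The 250 bases upstream of 5 members are shown because these genes had the largest and the smallest changes with heat. They were read from the RefSeq TAIR10.1 genome, 5′ to 3′ on the coding strand, and end at the last base before the annotated gene start. Capitals mark TGGGC on either strand, the letters known at the core of the element that NAC053 and NAC078 bind at proteasome promoters. The heat shock element cores GAANNTTC and TTCNNGAA were searched as well and occur in none of the 5. RPN6, PBC2 and RPN13 had the largest changes at the end of acclimation, RPN1A was among the largest at the end of both shocks, and RPT2A had the lowest change at the end of acclimation.

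RPN6 (AT1G29150) promoter, chr1:10180052-10180301, plus strand: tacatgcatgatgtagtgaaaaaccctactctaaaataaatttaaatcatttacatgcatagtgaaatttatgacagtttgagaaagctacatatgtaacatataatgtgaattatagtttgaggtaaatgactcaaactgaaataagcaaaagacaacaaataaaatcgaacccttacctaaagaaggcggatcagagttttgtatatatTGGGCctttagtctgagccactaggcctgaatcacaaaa
PBC2 (AT1G77440) promoter, chr1:29095770-29096019, plus strand: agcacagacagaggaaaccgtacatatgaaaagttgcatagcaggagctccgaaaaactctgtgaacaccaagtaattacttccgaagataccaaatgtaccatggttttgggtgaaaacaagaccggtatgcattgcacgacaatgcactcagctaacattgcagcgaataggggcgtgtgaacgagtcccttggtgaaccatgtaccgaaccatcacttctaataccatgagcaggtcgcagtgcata
RPN13 (AT2G26590) promoter, chr2:11315525-11315774, minus strand: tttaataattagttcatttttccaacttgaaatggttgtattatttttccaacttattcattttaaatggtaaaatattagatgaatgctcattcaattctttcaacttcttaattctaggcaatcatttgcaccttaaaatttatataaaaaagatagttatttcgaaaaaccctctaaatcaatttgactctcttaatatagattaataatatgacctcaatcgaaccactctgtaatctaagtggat
RPN1A (AT2G20580) promoter, chr2:8858712-8858961, plus strand: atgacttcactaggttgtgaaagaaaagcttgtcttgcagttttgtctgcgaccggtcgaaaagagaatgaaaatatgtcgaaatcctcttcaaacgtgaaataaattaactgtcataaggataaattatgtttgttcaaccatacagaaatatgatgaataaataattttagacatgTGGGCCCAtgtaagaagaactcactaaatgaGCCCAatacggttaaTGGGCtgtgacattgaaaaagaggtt
RPT2A (AT4G29040) promoter, chr4:14312033-14312282, plus strand: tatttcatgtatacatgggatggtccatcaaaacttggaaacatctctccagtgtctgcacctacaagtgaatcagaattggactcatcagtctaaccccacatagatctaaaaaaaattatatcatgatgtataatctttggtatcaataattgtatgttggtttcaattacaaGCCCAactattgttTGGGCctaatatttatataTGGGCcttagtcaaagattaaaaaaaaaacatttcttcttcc

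TGGGC occurred in 19 of the 44 member promoters (43.2%), against 22.7% of 27443 promoters of this length, and at least 2 copies occurred in 14 member promoters (31.8%), against 12.6% of all. The longer TGGGCC or TGGGCT likewise occurred in 19 member promoters (43.2%), against 19.2% of all. GAANNTTC occurred in 5 member promoters (11.4%), against 9.55% of all, and TTCNNGAA in 3 (6.82%), against 7.68% of all. Both heat shock patterns read the same on either strand and can overlap each other. The longer heat shock element of 3 such units in a row, which holds both, occurred in the promoter of RPN5A alone among the members (2.27%), against 0.386% of all. RPN1A had 4 copies of TGGGC, RPT2A had 3 and RPN6 had 1, while PBC2 and RPN13 had none. Copies on opposite strands can share letters, as in RPN1A, and were counted each. These are letter matches in a window and not measured binding sites, and they do not tell which factor binds there.

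The first comparisons asked how subunit transcripts changed while the leaves were warmed. At T2, 3 h into the ramp and at 38 °C, RPN6 was the only subunit gene that passed the test. It had 215 and 274 TMM-CPM in batches 1 and 2 at T2, against 56.9 and 65.8 at T1. Both T2 plates lay above both T1 plates. TMM-CPM is a count as CPM, scaled to the depth of its library, after edgeR's TMM scaling, which sets the libraries to a common level over the bulk of the genes. RPN6 rose by 1.99 ± 0.43 (log2, SE) with an edgeR adjusted p of 0.0211. RPN6 was thus 1 of 44 members called higher, against 2.01% of all genes tested, and no member was called lower, against 0.744%. Its p did not pass when any of the 4 plates was left out, and over 10 alternative settings it passed in 6, with adjusted p between 2.82e-06 and 0.254. The next members at T2 were the ubiquitin receptor RPN13 with a change of 0.77 ± 0.26 and the β3 copy PBC2 with 0.74 ± 0.26, and neither passed. The members' median change at T2 was 0.20, against -0.03 for all genes.

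At T3, when the air reached 45 °C, most subunit genes were higher. With TMM scaling 34 of the 44 members were called higher than at T1, against 18.3% of all genes tested, and none lower, against 23.4%. With library-size scaling 2 were called higher and 19 lower. The median change of the members was 1.08, against -0.24 for all genes, and it was 1.08 in batch 1 and 1.12 in batch 2. RPN6 led with 858 and 751 TMM-CPM at T3, against 56.9 and 65.8 at T1, a rise of 3.71 ± 0.47 (log2, edgeR adjusted p = 4.66e-05). PBC2 rose by 2.44 ± 0.27 and RPN13 by 1.90 ± 0.27. The smallest changes were those of the ATPase copy RPT2B, -0.31 ± 0.24, and of the α ring copies PAF2, 0.06 ± 0.36, and PAA2, 0.29 ± 0.27, and none of these passed. The leaf genes RBCS1A and LHCB1.3 together had 63892 and 54308 TMM-CPM at T3, against 24311 and 37299 at T1, and the shoot apex genes STM and KNAT1 together 4.60 and 6.43, against 18.8 and 17.5. Their part in the result was not tested. Against T2, 29 members were called higher at T3, against 11.8% of all genes, and none lower, against 14.5%. Library-size scaling called 0 higher and 9 lower. The count with TMM scaling lay between 6 and 15 when any 1 plate was left out, and was 6 without the T2 plate of batch 1.

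The sign of the members' change under heat depended on the scaling. At T4 HSP101 alone made up 1.54 and 1.98% of all gene counts in batches 1 and 2, against 0.000791 and 0.00101% at T9. The median change of all genes between T4 and T9 was -0.30 with TMM scaling and -2.02 with library-size scaling. The members' median was 1.09 with TMM scaling and -0.64 with library-size scaling, so it lay 1.39 above the median of all genes in both. 43 of the 44 members lay above that median under either scaling. As a share of all gene counts the members made up 0.231 and 0.289% at T4, against 0.338 and 0.348% at T9. Verbs of change below refer to TMM scaling, and the counts under library-size scaling are given beside them. The shares of all genes called are given for TMM scaling only. Counts under library-size scaling therefore do not show whether members were called lower more often than all genes.

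**Figure D1:**
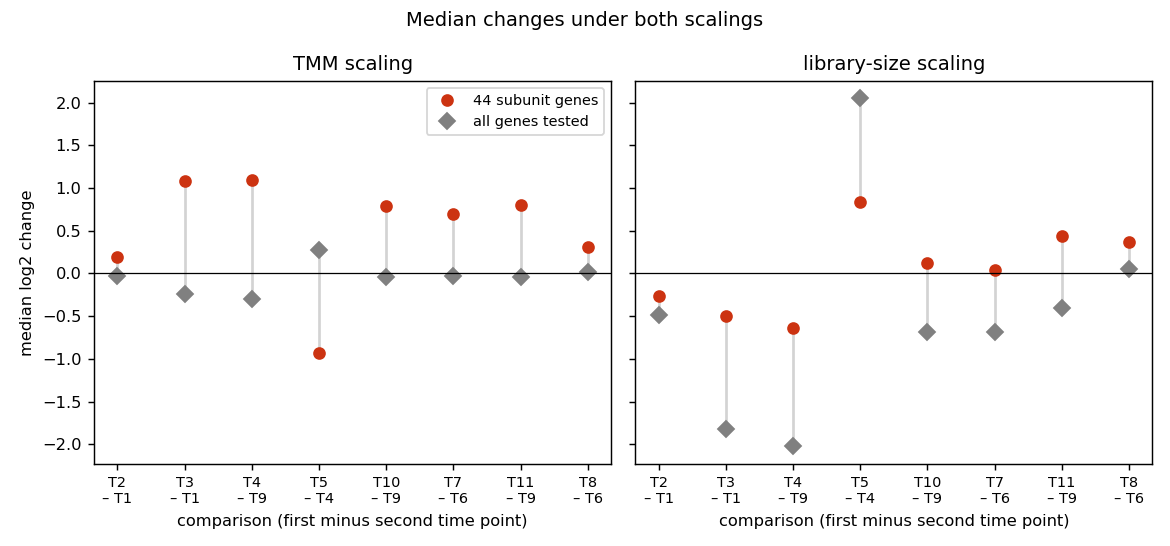
Median log2 change of the 44 subunit genes (circles) and of all genes tested (diamonds) in 8 comparisons, with TMM scaling on the left and library-size scaling on the right; the order on the axis is the first time point minus the second. In every comparison plotted other than T5 minus T4 the members lie above all genes under both scalings, by 1.39 at T4 minus T9, while their sign turns with the scaling at T2, T3 and T4, and at T5 minus T4, where they lie below all genes.

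T4, at the end of the acclimation treatment, was set against T9, the untreated plants sampled at the same hour of the light period 4 days later. With TMM scaling 34 of 44 members were called higher, against 18.7% of all genes tested, and none lower, against 24.2%. With library-size scaling 3 were called higher, RPN6, PBC2 and RPN13, and 22 lower. With that TMM scaling both T4 plates lay above both T9 plates for 41 members, and the share of all genes that did so was not counted. The leaf genes together had 99179 and 74628 TMM-CPM at T4, against 28930 and 28415 at T9, the root genes 448 and 447, against 321 and 303, and the shoot apex genes 5.68 and 2.52, against 11.1 and 11.4. Their part in the result was not tested. The count of members called higher was 24 to 28 when any 1 plate was left out. With the authors' log2 values it was 16, and 1 member was called lower. T1, the other untreated time point, differs from T4 by 7.5 h of the day. Against T1, too, 34 members were called higher at T4, against 18.8% of all genes, and none lower, against 23.5%, while library-size scaling called 1 higher and 24 lower.

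In the 20S core, 7 of the 12 α ring genes and 10 of the 11 β ring genes rose at T4 with TMM scaling, and of these PBC2 alone was called higher with library-size scaling. PAD1 (AT3G51260), which encodes α4, had 301 and 224 TMM-CPM at T4, against 73.3 and 73.6 at T9, a rise of 1.82 ± 0.33 (edgeR adjusted p = 0.000719). PBC2, a β3 copy, had 138 and 112 TMM-CPM at T4, against 23.5 and 27.2 at T9, a rise of 2.30 ± 0.27 (edgeR adjusted p = 2.98e-05). In these genes both plates at T4 stood clear of both at T9. PBG1 (AT1G56450), which encodes β7, rose by 1.92 ± 0.40 and PBD1, a β4 copy, by 1.84 ± 0.37. Of the genes for the proteolytic subunits, PBA1 (β1, AT4G31300) rose by 1.72 ± 0.35, PBB1 and PBB2 (β2) by 1.52 ± 0.31 and 1.34 ± 0.28, and PBE1 (β5) by 0.72 ± 0.21. The second β5 copy PBE2 had 13.4 and 15.3 TMM-CPM at T4, against 12.7 and 13.4 at T9, and its change of 0.13 ± 0.19 did not pass. PAB2, the α2 copy nearest the α ring median of 0.65, had 58.0 and 46.7 TMM-CPM at T4, against 33.8 and 32.9 at T9.

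In the 19S base, 7 of the 10 ATPase genes rose at T4. RPT5B (AT1G09100), nearest their median of 1.01, had 35.9 and 38.4 TMM-CPM at T4, against 19.5 and 18.1 at T9, a rise of 0.99 ± 0.23. The copies of RPT2, the ATPase known to open the core's gate, had values on the other side of 0. RPT2A had 59.7 and 85.1 TMM-CPM at T4, against 96.9 and 86.5 at T9, a change of -0.36 ± 0.23. RPT2B (AT2G20140) had 26.6 and 34.5 TMM-CPM at T4, against 35.1 and 38.7 at T9, a change of -0.28 ± 0.24. The T4 plates lay below the T9 plates for both genes, and neither passed the test with TMM scaling. RPT4B, with 0.22 ± 0.20, did not pass either, while its copy RPT4A rose by 1.04 ± 0.27.

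All 4 base genes that are not ATPases rose at T4. RPN13 had 122 and 82.2 TMM-CPM at T4, against 20.3 and 21.2 at T9, a rise of 2.27 ± 0.27 (edgeR adjusted p = 3.11e-05). The scaffold genes RPN1A and RPN2A rose by 1.60 ± 0.24 and 1.49 ± 0.24, and the ubiquitin receptor RPN10 by 1.19 ± 0.31. RPN1A was nearest the group's median of 1.54 and had 307 and 329 TMM-CPM at T4, against 106 and 104 at T9.

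In the lid 6 of 7 genes rose at T4. RPN6 had 927 and 855 TMM-CPM at T4, against 66.9 and 67.6 at T9, a rise of 3.73 ± 0.47 (edgeR adjusted p = 4.41e-05). It rose in all 10 alternatives, by 1.98 with library-size scaling. RPN7 (AT4G24820), nearest the lid median of 1.04, had 193 and 170 TMM-CPM at T4, against 83.5 and 92.1 at T9. RPN8A, the partner of RPN11 in the lid, had 61.5 and 73.8 TMM-CPM at T4, against 52.5 and 65.6 at T9, and its change of 0.20 ± 0.25 did not pass.

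Per kilobase of exon RPN6 ranked 1 of the 44 members at T4, with 412 TMM-CPM per kb on average, and the next, PBA1, had 223. At T9 it ranked 27, with 31.1 TMM-CPM per kb. When the members that encode 1 subunit were summed per kilobase, 31 sums resulted, 13 of them over 2 members. Loci that are not members, such as the copies RPN1B and RPN2B and the genes of RPN9 and DSS1, are not in these sums. The log2 ratio of the sums, T4 over T9, ran from -0.32 for RPT2 to 3.73 for RPN6, with a median of 1.19, and was above 0 for 30 of 31. Isoform lengths other than those of RefSeq would change the levels per kilobase. They would leave the ratios of sums that hold 1 member and could move those of sums over 2 members.

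**Figure D2:**
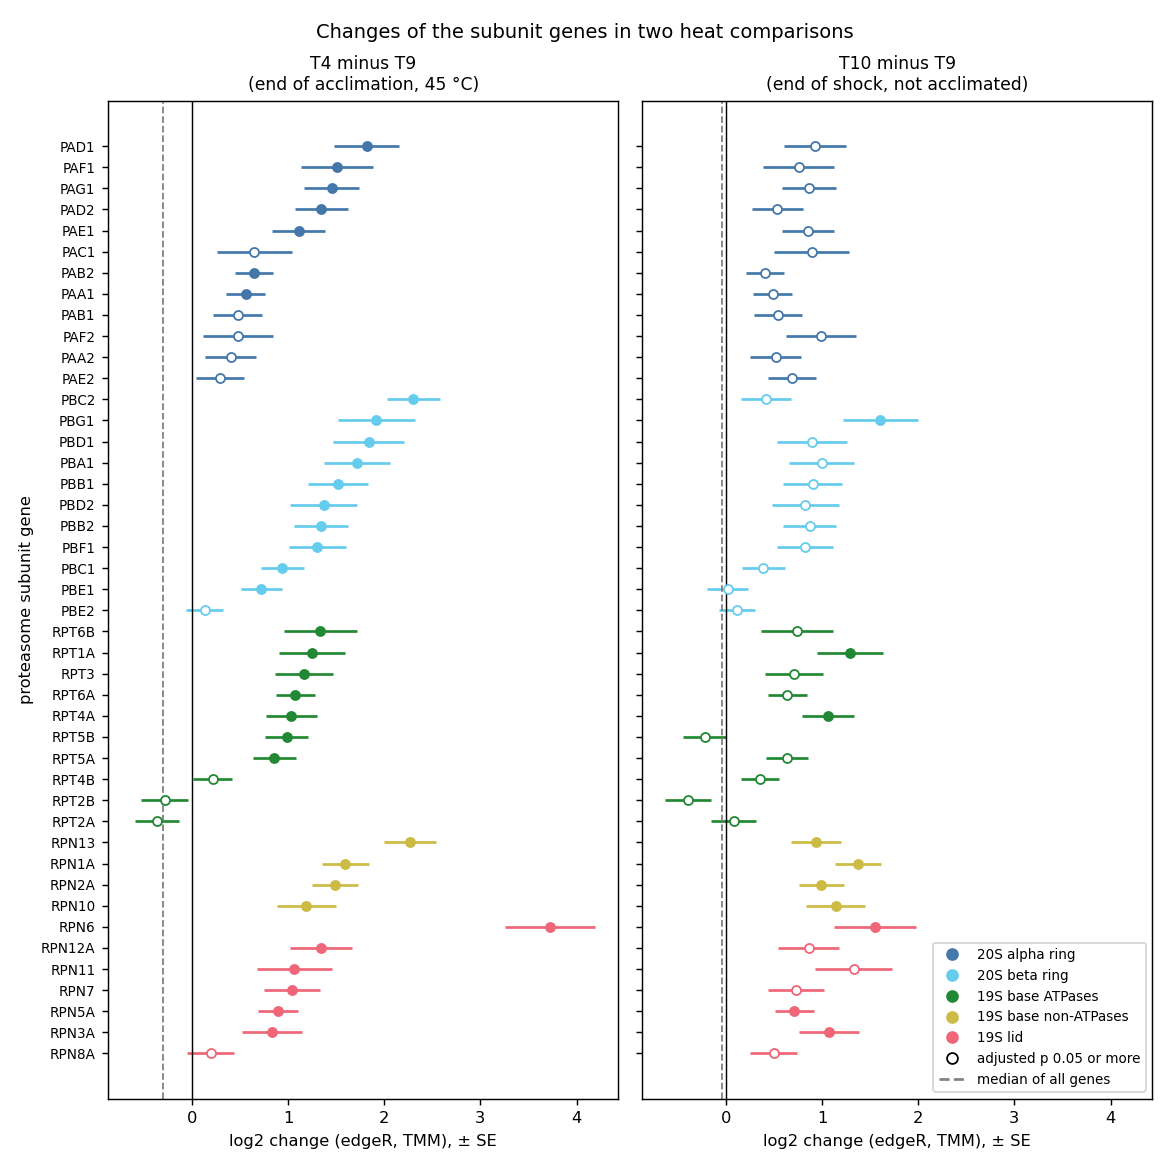
Log2 change of each of the 44 subunit genes (edgeR with TMM scaling, points with SE, filled where the adjusted p was under 0.05) at T4 minus T9 on the left and T10 minus T9 on the right, coloured by subcomplex, with the median of all genes as a dashed line. RPN6 stands apart at T4 with 3.73, RPT2A and RPT2B are the members below 0 there, and 34 points are filled on the left against 10 on the right; with library-size scaling 3 members are called higher and 22 lower on the left, and 0 and 1 on the right.

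After the treatment most subunit genes were lower again with TMM scaling. At T5, 2 days later at 22 °C, 32 members were called lower than at T4, against 19.3% of all genes, and 1 higher, against 25.3%. With library-size scaling 1 was called lower and 29 higher. RPN6 fell to 62.0 and 124 TMM-CPM at T5, against 927 and 855 at T4, a change of -3.26 ± 0.46 (edgeR adjusted p = 9.86e-05). RPN13 changed by -2.16 ± 0.27 and PBC2 by -1.97 ± 0.27. RPT2A was the member called higher, by 0.61 ± 0.23 (edgeR adjusted p = 0.0443), with 102 and 118 TMM-CPM at T5, against 59.7 and 85.1 at T4, and it was not called when any 1 plate was left out. The count of members called lower was 15 to 31 when 1 plate was left out, with 15 without the T5 plate of batch 1.

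Against the untreated plants of T9, no member passed at T5 or T6 with edgeR. Of all genes 0.224% were called higher and 0.219% lower at T5, and 0.0143% higher and 0.00477% lower at T6. At an unadjusted p under 0.05 the members counted 0 at T5 and 1 at T6, and DESeq2 called 0 at both. The members' median change was 0.15 at T5 and 0.21 at T6, each against 0.01 for all genes. It differed between the batches, with -0.03 and 0.28 in batches 1 and 2 at T5 and 0.10 and 0.34 at T6. HSP101 differed likewise, with 12.8 and 320 TMM-CPM in batches 1 and 2 at T5 and 7.37 and 98.3 at T6, against 5.86 and 7.54 at T9. The root gene PYK10 had 270 and 1063 TMM-CPM at T5 and 287 and 717 at T6, against 305 and 290 at T9. The part of either in the members' batch gap was not tested. T9 itself did not differ from T1 for any member with edgeR, against 1.6% of all genes called higher and 0.315% called lower. The members' median change was 0.03, 1 had an unadjusted p under 0.05, and DESeq2 called 1.

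**Figure D3:**
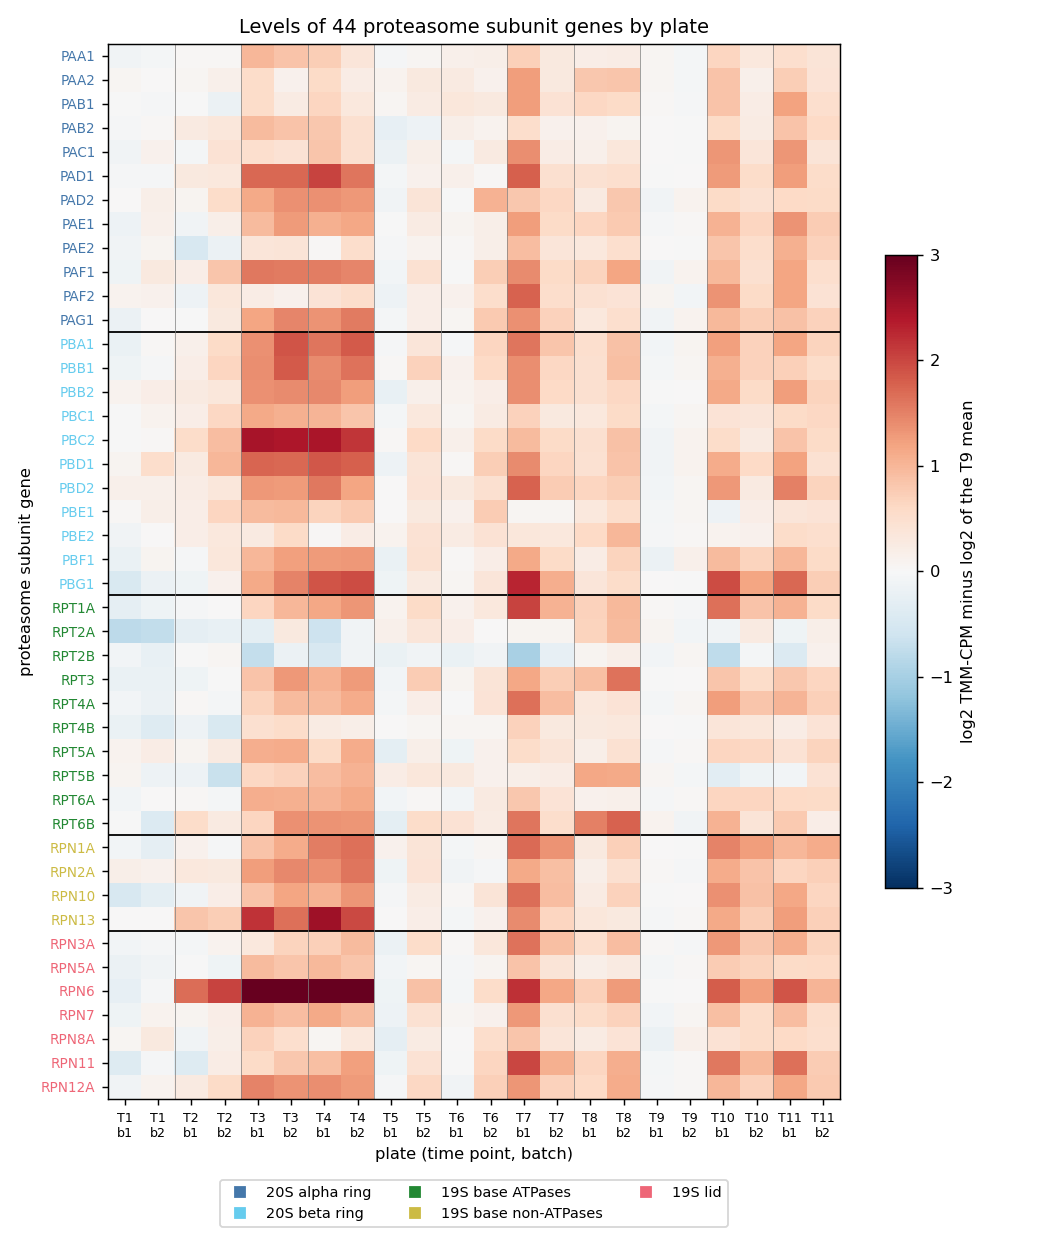
Level of each subunit gene in each of the 22 plates, as log2 TMM-CPM minus the log2 of that gene's mean at T9, with rows grouped by subcomplex and columns ordered by time point and batch. The T3 and T4 columns are the deepest red, RPN6 lies beyond the end of the colour scale in them, and at T7, T10 and T11 the batch 1 column is redder than that of batch 2; with library-size scaling T3 and T4 turn to a fall for most genes.

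The day 16 shock brought naive plants straight to 45 °C for 90 min. At its end, 10 of the 44 members were called higher in T10 than in T9, against 3.76% of all genes tested, and none lower, against 4.46%. With library-size scaling 0 were called higher and 1, PBE1, lower. All genes together had a median of -0.04 with TMM scaling and of -0.69 with library-size scaling. The members' median change was 0.79, with 1.04 in batch 1 and 0.53 in batch 2, and it lay 0.83 above that of all genes with TMM scaling and 0.80 above it with library-size scaling. Of the 10, 9 were 19S genes and 1 was a 20S gene, though the median change was 0.74 over the 21 19S genes and 0.82 over the 23 20S genes. With TMM scaling both T10 plates lay above both T9 plates for 40 members, and the share of all genes that did so was not counted. The leaf genes together had 50477 and 44066 TMM-CPM in T10, against 28930 and 28415 in T9, the root genes 235 and 153, against 321 and 303, and the shoot apex genes 5.92 and 7.02, against 11.1 and 11.4. Their part in the result was not tested.

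The 4 base genes that are not ATPases all rose in T10. RPN1A had 293 and 251 TMM-CPM in T10, against 106 and 104 in T9, a rise of 1.37 ± 0.24 (edgeR adjusted p = 0.00624). RPN10 rose by 1.14 ± 0.31, RPN2A by 0.99 ± 0.23 and RPN13 by 0.94 ± 0.26. Among the ATPases RPT1A, with 343 and 198 TMM-CPM in T10, against 112 and 107 in T9, rose by 1.29 ± 0.34, and RPT4A rose by 1.06 ± 0.27. RPT1A is the ATPase that pairs with RPT2 in the hexameric ring. In the lid, RPN6 had 237 and 157 TMM-CPM in T10, against 66.9 and 67.6 in T9, a rise of 1.55 ± 0.43 (edgeR adjusted p = 0.0412). RPN3A rose by 1.08 ± 0.31 and RPN5A by 0.71 ± 0.21, both structural lid genes. RPN11, the deubiquitinase gene, had a change of 1.33 ± 0.40 that did not pass (edgeR adjusted p = 0.0521).

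In the 20S core PBG1 was the member that passed. It had 249 and 145 TMM-CPM in T10, against 64.2 and 63.9 in T9, a rise of 1.61 ± 0.39 (edgeR adjusted p = 0.0263). The plates of both groups stood apart, but the T10 plates differed from each other as well. At the other end, RPT2B had 21.8 and 35.7 TMM-CPM in T10, against 35.1 and 38.7 in T9, a change of -0.39 ± 0.24. RPT5B changed by -0.22 ± 0.22 and PBE1 by 0.02 ± 0.21, and none of these passed.

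The shock calls rest on few plates. Without the T10 plate of batch 1, or without either T9 plate, 0 members were called in T10, and 6 were called without the T10 plate of batch 2. DESeq2 called 22 members, and 3388 of all 20980 genes in either direction. The fit with the authors' log2 values called 0 members. Of the 44 members, 37 were higher in batch 1 than in batch 2 in T10, 41 in T7 and 34 in T11, and HSP101 was likewise higher in batch 1, with 5554 and 2689 TMM-CPM in T10. The part of this batch gap in the results was not tested beyond leaving these plates out.

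In the acclimated plants the same shock was read as T7 against T6. Again 10 members were called higher, against 4.46% of all genes tested, and none lower, against 3.78%. With library-size scaling 1, RPN1A, was called higher and 2 lower. The members' median change was 0.70, against -0.03 for all genes, but it was 1.20 in batch 1 and 0.18 in batch 2. RPN1A had 343 and 267 TMM-CPM in T7, against 101 and 109 in T6, a rise of 1.54 ± 0.24 (edgeR adjusted p = 0.00576). PBG1 had 311 and 136 TMM-CPM in T7, against 67.0 and 82.9 in T6, a rise of 1.55 ± 0.39. RPN6 had 306 and 150 TMM-CPM in T7, against 65.1 and 98.6 in T6, a rise of 1.48 ± 0.43. In each of these 3 genes the T7 plates lay above the T6 plates, and in PBG1 and RPN6 the batch 1 plate of T7 stood well above its batch 2 plate.

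The remaining members called in T7 were RPT1A with 1.37 ± 0.34, PAD1 with 1.12 ± 0.33, RPN10 and RPN3A with 1.12 ± 0.31 each, RPT4A with 1.11 ± 0.27, RPN2A with 1.08 ± 0.23 and RPN13 with 1.01 ± 0.26. The lowest changes were those of RPT2B, -0.44 ± 0.24, and of PBE1, -0.40 ± 0.21, and neither passed with TMM scaling. The leaf genes together had 33245 and 36630 TMM-CPM in T7, against 15225 and 32130 in T6, and the shoot apex genes 4.41 and 10.7, against 12.0 and 13.5, and their part in the result was not tested. Without the T7 plate of batch 1, or the T6 plate of batch 1, 0 members were called. 1 was called without the T6 plate of batch 2, and 22 without the T7 plate of batch 2.

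Whether acclimation altered the response was tested as the difference (T7 minus T6) minus (T10 minus T9). No member passed with edgeR, and 0% of all genes did. The members' median difference was -0.05, with 0.19 in batch 1 and -0.27 in batch 2. No member had an unadjusted p under 0.05, and DESeq2 called 0. RPN1A changed by 1.54 in acclimated and 1.37 in non-acclimated plants, PBG1 by 1.55 and 1.61, and RPN6 by 1.48 and 1.55. T7 against T10 gave 0 members with edgeR, against 0.0524% of all genes called higher and 0.00477% called lower. The median difference was 0.20, 0 had an unadjusted p under 0.05 and DESeq2 called 0. The differences between the responses were 0.17 ± 0.33 for RPN1A, -0.06 ± 0.54 for PBG1 and -0.07 ± 0.59 for RPN6, and these errors do not show the responses to be alike.

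**Figure D4:**
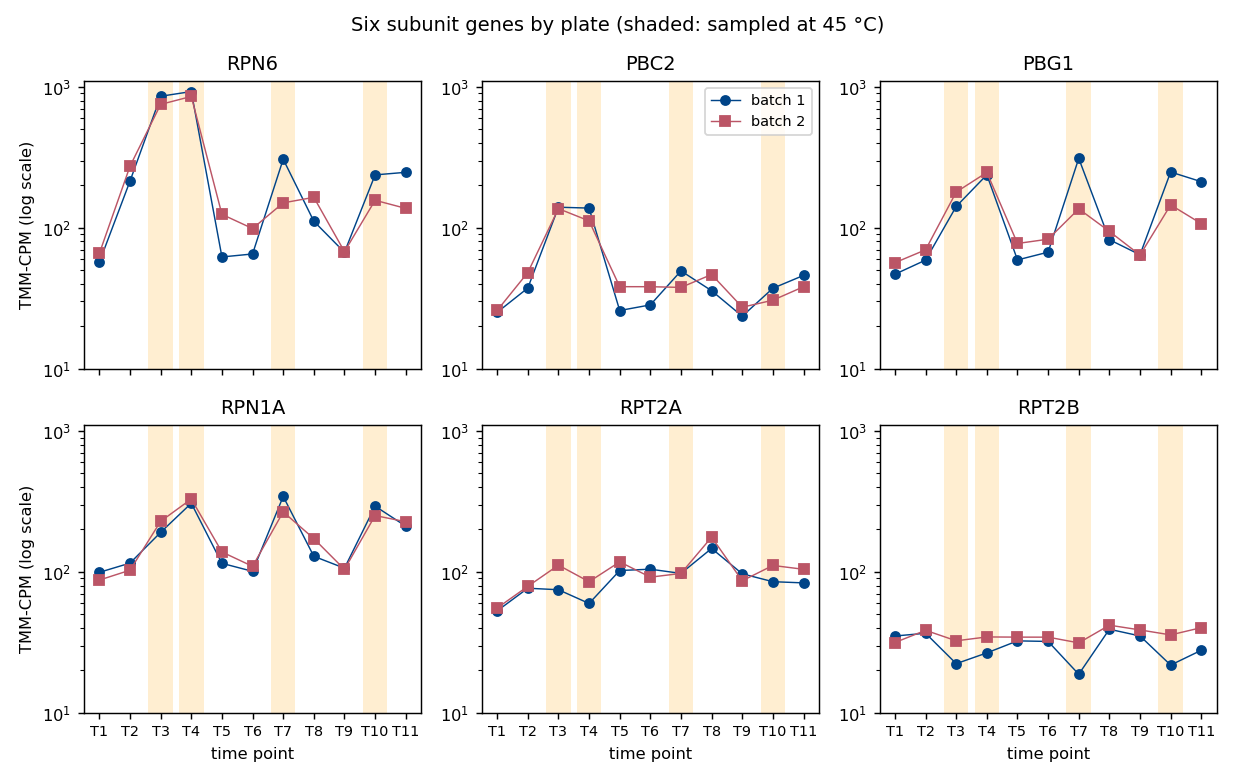
TMM-CPM of RPN6, PBC2, PBG1, RPN1A, RPT2A and RPT2B in each plate from T1 to T11 on a log axis, with batch 1 as circles and batch 2 as squares and the time points sampled at 45 °C shaded. RPN6 reaches 927 and 855 at T4 and 237 and 157 at T10, PBC2 is highest at T3 and T4 with much lower T7 and T10 values, RPN1A reaches 307 and 329 at T4 and 293 and 251 at T10, and RPT2A is highest at T8; with library-size scaling RPN6, PBC2 and RPN13 are the members still called higher at T4 than at T9.

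The slow treatment and the direct shock were set against each other as T4 against T10, both after 90 min at 45 °C. T4 was sampled on day 12, 7.5 h into the light period, and T10 on day 16, 9 h into it. With TMM scaling 6 of the 44 members were called higher at T4, against 12.1% of all genes tested, and none lower, against 16.2%. The share of members called higher was thus near that of all genes. The leaf genes together averaged 86903 TMM-CPM at T4, against 47271 at T10. The root genes averaged 448, against 194, and the shoot apex genes 4.10, against 6.47. The part of these genes in the result was not tested. With library-size scaling 2, RPN6 and PBC2, were called higher and 24 lower. RPN6 had 927 and 855 TMM-CPM at T4, against 237 and 157 at T10, a difference of 2.18 ± 0.44 (edgeR adjusted p = 0.0022), and it passed in all 11 alternatives. PBC2 had 138 and 112 TMM-CPM at T4, against 37.1 and 30.6 at T10, a difference of 1.88 ± 0.27. These 2 genes were higher at T4 in every plate. RPN13 was higher by 1.33 ± 0.26, RPT5B by 1.21 ± 0.23, PAD2, the second α4 copy, by 0.81 ± 0.27 and PBE1 by 0.71 ± 0.21, PAD2 and PBE1 with a negative sign under library-size scaling. With any 1 plate left out, 4 members were called. Without the batch 1 plates of T7, T10 and T11, an alternative chosen after seeing the data, 15 were called.

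2 days after the shock the non-acclimated plants still differed from T9. In T11, 7 members were called higher than in T9, against 3.02% of all genes tested, and none lower, against 3.67%. With library-size scaling 0 were called in either direction. The members' median change was 0.81, against -0.04 for all genes, with 0.99 in batch 1 and 0.55 in batch 2. RPN6 had 247 and 137 TMM-CPM in T11, against 66.9 and 67.6 in T9, a rise of 1.51 ± 0.43 (edgeR adjusted p = 0.0479). RPN1A had 211 and 227 TMM-CPM in T11, against 106 and 104 in T9, a rise of 1.06 ± 0.24 (edgeR adjusted p = 0.0206). Both genes stood above T9 in both batches, RPN6 more so in batch 1. The comparisons of T4, T10 and T11 share the T9 plates, and those of T7 and T8 share the T6 plates.

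The α5 copies PAE1 and PAE2 rose in T11 by 1.09 ± 0.27 and 0.89 ± 0.25, the α2 copy PAB2 by 0.72 ± 0.19, the β2 copy PBB2 by 0.97 ± 0.28 and RPN13 by 0.99 ± 0.26. HSP101 moved with these genes, with 3601 and 1241 TMM-CPM in T11, and the shoot apex genes STM and KNAT1 together averaged 20.6 TMM-CPM in T11, against 11.3 in T9. The root genes together averaged 169 TMM-CPM in T11, against 312 in T9. The part of HSP101, the shoot apex genes or the root genes in the result was not tested. Without either T9 plate, or without the T11 plate of batch 1, 0 members were called, and 8 were called without the T11 plate of batch 2. DESeq2 called 25.

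In the acclimated plants 2 days after the shock, T8 against T6, 1 member was called higher, against 1.37% of all genes tested, and none lower, against 3.27%. With library-size scaling it was 0. RPT5B, an ATPase copy, had 41.7 and 41.5 TMM-CPM in T8, against 23.0 and 20.4 in T6, a rise of 0.94 ± 0.22 (edgeR adjusted p = 0.0299). It was not called without any 1 of the 4 plates. RPT6B had 64.5 and 77.6 TMM-CPM in T8, against 30.5 and 26.9 in T6, and RPT3 had 176 and 295, against 100 and 123. RPT6B changed by 1.32 ± 0.38 and RPT3 by 1.07 ± 0.30, with edgeR adjusted p of 0.0592 and 0.0559. These 3 ATPase genes had the largest changes of the members in T8, while the medians were 0.46 over the 10 ATPase genes, 0.52 over the 7 lid genes and 0.31 over all members. RPT2A, RPT2B, RPT3, RPT6B and PBE2 had their highest level of all 22 plates in the batch 2 plate of T8, and RPT5B in the batch 1 plate. The leaf genes RBCS1A and LHCB1.3 together averaged 6909 TMM-CPM in T8, against 23677 in T6, and their part in the result was not tested.

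T8 against T11 compared both kinds of plants 2 days after the shock. RPT6B, RPT5B and RPT2A were called higher in T8, 3 members against 13.9% of all genes tested, and PAB2 was called lower, 1 against 13.4%. With library-size scaling 6 were called higher and none lower. RPT2A had 147 and 176 TMM-CPM in T8, against 83.5 and 104 in T11, a difference of 0.78 ± 0.23. RPT5B differed by 0.95 ± 0.22, RPT6B by 1.14 ± 0.38 and PAB2 by -0.62 ± 0.19. As shares of the 44 members both counts lay below those of all genes, so these calls concern single genes and not the members as a set. The leaf genes RBCS1A and LHCB1.3 together averaged 6909 TMM-CPM in T8, against 33617 in T11. The root genes averaged 658, against 169, and the shoot apex genes 21.5, against 20.6. The part of these genes in the result was not tested. With 1 plate left out, 0 or 1 members were called higher and none lower, and it was 0 without the T11 plate of batch 1. The difference (T8 minus T6) minus (T11 minus T9), added after these results were seen, had a median of -0.50 over the members, with -0.60 and -0.26 in batches 1 and 2. No member passed it with edgeR, against 0.672% of all genes called higher and 0.786% called lower. 2 had an unadjusted p under 0.05, and DESeq2 called 1 lower.

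Among the members 13 subunits have 2 copies, whose coding sequences were 76.8% (PBD1 and PBD2) to 94.4% (RPT6A and RPT6B) identical. The longest run of identical bases was 104, in RPT6A and RPT6B, so reads of that pair in particular may have been lost as multiply aligned or split between the copies. At T4 against T9, both copies were called in 6 pairs, the first alone in 5, the second alone in 1 and neither in 1. The log2 ratio of the counts of 2 copies does not depend on the scaling. It was compared between the 8 plates sampled at 45 °C (T3, T4, T7 and T10) and the 12 at 22 °C by a two-sided exact permutation test within batches over 44100 arrangements, adjusted over the 13 pairs. That test takes the plates of a time point as independent, and they often had similar ratios. With the 4 time points at 45 °C and the 6 at 22 °C as the units, an alternative added after seeing the data, there are 210 arrangements and the smallest p is 0.00476.

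With plates as units the ratio differed in 4 of 13 pairs, and with time points as units in 0, with exact permutation adjusted p of 0.0929 for PAD and RPT4, 0.103 for PAE and 0.155 for PBC. Before adjustment these 4 pairs had exact permutation p of 0.00952, 0.0143, 0.0238 and 0.0476 over time points, in the order PAD, RPT4, PAE and PBC. PAD1 over PAD2 averaged 1.68 ± 0.36 at 45 °C and 1.18 ± 0.39 at 22 °C (log2, SD), a difference of 0.50 (exact permutation adjusted p = 0.0055). PAE1 over PAE2 averaged 0.21 ± 0.34 at 45 °C and -0.19 ± 0.13 at 22 °C, a difference of 0.40 (exact permutation adjusted p = 0.0055). RPT4A over RPT4B averaged -0.49 ± 0.28 at 45 °C and -0.98 ± 0.25 at 22 °C, a difference of 0.49 (exact permutation adjusted p = 0.0055). In these 3 pairs the mean ratio was higher at 45 °C, but not at each time point. PAE1 over PAE2 was 0.29 and 0.61 at T3 and 0.74 and 0.36 at T4 in batches 1 and 2, while it was 0.03 and -0.07 at T7 and -0.08 and -0.16 at T10, within the 22 °C range of -0.34 to 0.03. RPT4A over RPT4B was -0.95 and -0.74 at T3, within the 22 °C range of -1.23 to -0.35. The groups overlapped in every pair. With the authors' log2 values the difference of PAD1 over PAD2 was 0.20 and did not pass.

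PBC1 over PBC2 was the pair with the lower ratio at 45 °C, with 0.09 ± 0.65 at 45 °C and 0.72 ± 0.15 at 22 °C, a difference of -0.63 (exact permutation adjusted p = 0.0217). It was the acclimation plates that differed. The ratio was -0.50 and -0.52 at T3 and -0.58 and -0.46 at T4 in batches 1 and 2, while it was 0.57 and 0.55 at T7 and 0.70 and 0.93 at T10, within or near the 22 °C range of 0.49 to 0.91. Without the T3 plates the difference was -0.43 and without the T4 plates -0.43, and neither passed. Batch 1 alone gave -0.69 and batch 2 alone -0.57. The 4 differences had the same sign in each batch alone, where no pair passed after adjustment.

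**Figure D5:**
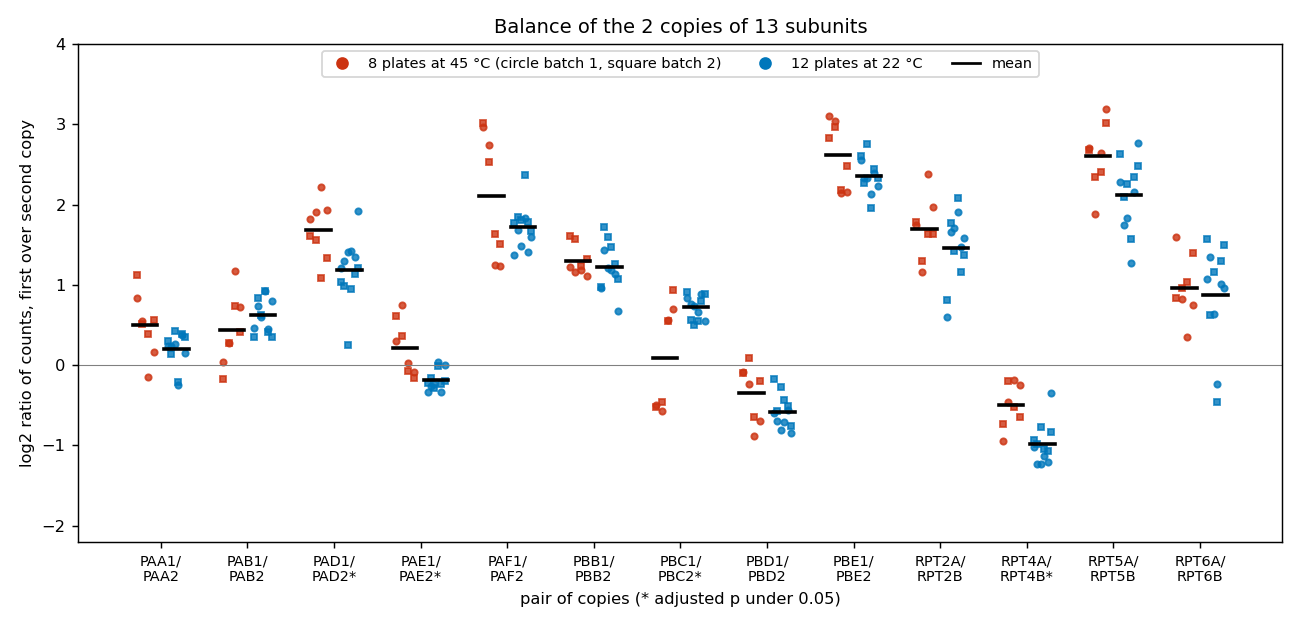
Log2 ratio of counts of the first over the second copy for 13 subunits, with 8 plates at 45 °C on the left of each pair and 12 plates at 22 °C on the right, circles for batch 1, squares for batch 2 and bars for the means. The 4 starred pairs passed the exact permutation test over plates, and none passed it over time points; in PBC1/PBC2 the 45 °C plates fall into T3 and T4 at -0.58 to -0.46 and T7 and T10 at 0.55 to 0.93.

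As a description of how alike the members were, each gene's log2 TMM-CPM was set against the median of the other members over the 22 plates, which share their libraries and scaling. The median Pearson r was 0.86, and 26 of 44 members were above 0.8. RPN7 was highest with 0.96. RPT2B was lowest with -0.50, then RPT2A with 0.22, PBE2 with 0.44, PBE1 with 0.46 and RPT5B with 0.47. The counts of the 19S genes over those of the 20S genes kept within 0.04 and 0.43 (log2) over the plates.

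The members were also described by the TGGGC letters in their promoters. At T4 against T9 the 19 members with TGGGC had changes of -0.36 to 3.73, with 14 called higher. The 25 without it had changes of -0.28 to 2.30, with a median of 1.04 and 20 called higher. At T10 against T9 the median changes were 0.90 with TGGGC and 0.69 without it, with 5 called in each. No test was made of these differences.

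A list of 12 further loci held copies of members and, in RPN9A, RPN9B, DSS1(I) and DSS1(V), genes of subunits without a member. Of the 12, 5 rose at T4 against T9 and 2 fell, against 18.7% and 24.2% of all genes tested. The median change of the 12 was 0.40, while library-size scaling called 1 higher and 10 lower. The scaffold copies RPN2B and RPN1B rose by 2.48 ± 0.27 and 1.56 ± 0.21, and the copies PAC2 and RPN3B changed by -2.32 ± 0.81 and -0.91 ± 0.24. RPN2A had risen by 1.49 ± 0.24, and its difference from RPN2B was not tested. In T10 against T9, 1 of the 12 passed, RPN1B with 0.85 ± 0.21, against 3.76% of all genes called higher and 4.46% called lower.

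Among 17 tested regulators and partners of the proteasome, 10 rose and 2 fell at T4 against T9, against 18.7% and 24.2% of all genes. Library-size scaling called 5 higher and 8 lower. NAC078 had 434 and 436 TMM-CPM at T4, against 53.9 and 41.3 at T9, a rise of 3.20 ± 0.37, and of 1.47 with library-size scaling. NAC078 had also risen at T2, by 1.91 ± 0.35, beside RPN6, and rose by 1.89 ± 0.35 in T10 against T9, 1.72 ± 0.35 in T7 against T6 and 1.57 ± 0.35 in T11 against T9. NAC053 had 7.31 and 6.03 TMM-CPM at T4, against 9.49 and 7.84 at T9, and did not pass. NAC053 had a change of 0.60 ± 0.32 in T10 against T9 and of 0.27 ± 0.32 in T11 against T9, and did not pass in either.

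The segregase genes CDC48B, CDC48C and CDC48A, whose products pull ubiquitin-tagged proteins from complexes, rose at T4 by 7.04 ± 1.10, 3.54 ± 0.41 and 2.50 ± 0.38. PTRE1, a regulator of proteasome activity, rose by 2.40 ± 0.30, the core assembly factor gene UMP1A by 1.96 ± 0.34 and the deubiquitinase gene UBP6 by 1.53 ± 0.25, which was -0.21 with library-size scaling. PA200, which encodes an alternative cap of the 20S core, had 6.09 and 19.5 TMM-CPM at T4, against 53.7 and 51.4 at T9, a change of -2.09 ± 0.40 (log2) that passed. PA200 was thus lower at T4, where 17 of the 21 19S genes were higher. In T10 against T9, 7 of the 17 rose and none fell, against 3.76% and 4.46% of all genes. PA200 had a change of 0.50 ± 0.37 there.

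Of 8 ubiquitin and ubiquitin-activating genes 7 rose at T4 against T9, against 18.7% of all genes. With library-size scaling 2 were called higher and 1 lower. The polyubiquitin gene UBQ10 had 10610 and 8406 TMM-CPM at T4, against 798 and 769 at T9, a rise of 3.59 ± 0.61. UBQ10 rose by 2.08 ± 0.58 in T10 against T9, where 5 of the 8 rose, against 3.76% of all genes. Among the 5 were both E1 genes, UBA1 with 1.46 ± 0.35 and UBA2 with 1.04 ± 0.21. The polyubiquitin genes share near-identical repeats, so their counts may be split or lost among copies.

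Of the 44 members 16 overlap another annotated gene, 14 of them on the opposite strand. The library kit keeps the strand, but no source used here gives the counting's strand setting, so reads of these 14 loci may include those of the neighbour. They are PAB2, PAD2, PAF2, PBB2, PBD1, PBD2, PBF1, PBG1, RPT1A, RPT5B, RPN5A, RPN7, RPN11 and RPN12A, while RPN6 (chr1:10180302-10182808, plus strand), PBC2, RPN13, RPN1A, RPT2A and RPT2B overlap none. Coordinates are those of RefSeq on TAIR10.1, and the count tables, made on TAIR10, give loci and no coordinates.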

How the data were processed

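Counts per locus were deposited for 43 libraries. Per the submitters' processing notes, the authors used TopHat2 2.0.14 with Bowtie2 2.1.0.0 on TAIR10, and counted with HTSeq. Base calls came from bcl2fastq 1.8.4. Their log2 values for 18864 loci were deposited as a table of log2 values whose columns have nearly equal distributions, so the authors scaled them, by a method not stated. Of its columns 1 matched no sample and was not used. Summary lines, 11.7 to 45.3% of a library's records, stayed out of library sizes. Reads that align to several places are among them, which lowers counts of near-identical copies.

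The tubes of a plate were summed and the 22 plates fitted together in edgeR 4.0.16 (R 4.3.3) with the quasi-likelihood test, TMM scaling, filterByExpr with a smallest count of 10, and time point and batch as terms. P-values were adjusted by Benjamini-Hochberg over 20980 genes with a threshold of 0.05. Plates are the replicates, 2 per time point, each in its own batch. The p-values rest on a spread between plates that was estimated for each gene over all 22 plates and moderated across genes. They do not measure the spread of the 2 plates of a time point alone. Batch numbers come from the labels, and plates of 1 batch deviated together, with a correlation from 0.06 to 0.80 (median 0.32) over 55 pairs of time points, 47 of them above 0.1. The batch term is thus part of the fit.

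Pair ratios used counts with 0.5 added. Promoters were read with Biopython 1.88. Alternatives were DESeq2 1.42.0, limma 3.58.1 on the authors' log2 values, library-size scaling, no filter, no batch term, tubes as samples, leaving out plates and, for pair ratios, time points as units. The members and the gene lists were chosen with earlier results of these data known. Any member could be named, and the text describes those with the largest and smallest changes and those nearest their subcomplex's median.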

Additional observations from a re-analysis of the deposited data

How the results depend on the processing

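With library-size scaling the members called higher and lower numbered 2 and 19 at T3 against T1, 0 and 9 at T3 against T2, 1 and 24 at T4 against T1, 3 and 22 at T4 against T9, 29 and 1 at T5 against T4, 0 and 1 at T10 against T9, 1 and 2 at T7 against T6, 2 and 24 at T4 against T10, and 6 and 0 at T8 against T11, and none were called higher at T11 against T9 or T8 against T6. No share of all genes called with library-size scaling is given beside these counts. The sign of 36 of 44 changes at T3 against T1, 36 at T4 against T9, 28 at T4 against T10 and 14 each at T10 against T9 and T7 against T6 was positive with TMM scaling and negative with library-size scaling. Examples that passed under one of the scalings were PAF2 (-1.52) and PAA2 (-1.29) at T3 against T1, PBE2 (-1.60), RPN8A (-1.53), RPT4B (-1.52) and PAE2 (-1.42) at T4 against T9, PBE1 (-0.63) at T10 against T9, and PBE1 (-0.39) and PAD2 (-0.28) at T4 against T10.

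DESeq2 called 22 members higher at T10 against T9, 18 at T7 against T6, 11 at T4 against T10, 25 at T11 against T9, 4 at T8 against T6 and 1 at T9 against T1. In the same order it called 3388, 3362, 6695, 3222, 2142 and 894 of all 20980 genes, in either direction. It called 2 members lower at T8 against T11, where 6975 genes were called. In the difference of the T8 and T11 responses it called 1 member lower and 1955 genes in either direction. With limma on the authors' log2 values, 13 were higher at T3 against T1, 2 at T3 against T2, 16 at T4 against T1 and 16 at T4 against T9, with 1 lower in each of the last pair. There 11 were lower at T5 against T4, 0 higher at T10 against T9, 1 higher and 1 lower at T7 against T6, 4 higher at T11 against T9, 3 higher at T8 against T6 and 2 lower at T8 against T11. With no filter 0 were higher at T5 against T4 and 3 at T11 against T9. The causes were not tested.

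Without the batch term (no replicate block), 0 were called higher at T5 against T4, 4 at T10 against T9, 5 at T7 against T6, 1 at T11 against T9, and 1 higher and 0 lower at T8 against T11. With tubes as samples and batch and tube number as the replicate block, where tubes of a plate are not independent, 4 were higher at T2 against T1, 1 lower at T3 against T2, 1 lower at T4 against T9, 35 higher at T10 against T9, 29 higher and 2 lower at T7 against T6, 13 higher and 2 lower at T4 against T10, 37 higher at T11 against T9, 7 higher at T8 against T6, 12 lower at T8 against T11, 1 higher at T9 against T1, and 2 higher and 12 lower in the difference of the T8 and T11 responses.

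Leaving out the batch 1 plates of T7, T10 and T11, chosen after seeing the data, left 2 higher at T10 against T9, 1 at T7 against T6, 15 at T4 against T10, 0 at T11 against T9, 3 at T8 against T6, and 1 higher and 0 lower at T8 against T11. Leaving out 1 plate at a time, where the lone plate is assumed to vary like the others, gave 0 higher at T2 against T1, 23 to 31 at T3 against T1, 6 to 15 at T3 against T2, 23 to 30 at T4 against T1, 24 to 28 at T4 against T9, 0 higher and 15 to 31 lower at T5 against T4, 0 to 6 higher at T10 against T9, 0 to 22 at T7 against T6, 4 at T4 against T10, 0 to 8 at T11 against T9, 0 at T8 against T6, and 0 to 1 higher and 0 lower at T8 against T11.

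For the copy ratios, batch 1 alone gave PAD 0.53, PAE 0.43, PBC -0.69 and RPT4 0.57, and batch 2 alone 0.47, 0.37, -0.57 and 0.41, none passing with fewer plates. The authors' values gave PAD 0.20, which did not pass, and PBD 0.30, which did. Without T3 PBC gave -0.43 and without T4 -0.43, neither passing, and RPT5 passed without T4 (0.65). Without T7, PAA (0.42), PAB (-0.37), PAF (0.62), PBD (0.37) and PBE (0.40) passed, and PAF passed without T10 (0.64). With time points as units, chosen after seeing the data, the differences were those of the plates (PAD 0.50, PAE 0.40, PBC -0.63 and RPT4 0.49) and none passed.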
